A study of Mus musculus with 4 samples.

Results

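The genes described here are 3 members of the interferon-induced IFIT family, Ifit1, Ifit2 and Ifit3, and 5 genes of ISG15 conjugation, Isg15, Usp18, Uba7, Ube2l6 and Herc6. They were taken by symbol from the deposited tables, which list 21878 genes each, and all 8 were found. RNA was sequenced from mouse liver cells in culture that had taken on a progenitor-like state, to compare origins. Hepatocytes gave 2 libraries (HepLPC) and the non-parenchymal cells of the liver gave 2 (NPC_LPC). All mice were C57BL/6 and 6 to 8 weeks old per the labels, and both kinds of cell were cultured in transition and expansion media. The protocol lists tdTomato mice given AAV8-TBG-Cre, a virus that carries Cre under a hepatocyte-selective promoter, for hepatocytes, and AlbCreERT/R26GFP mice, in which an albumin promoter drives an inducible Cre, for non-parenchymal cells. Read in that order, mouse line and virus go with the origin and cannot be told apart from it. No label states that the libraries of an origin are from different animals or cultures, so the spread given below, and any p-value, may reflect technical variation alone. The cell type label of HepLPC names both hepatocytes and non-parenchymal cells, and the groups were read from the titles.

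The 8 genes were chosen by their read counts in this contrast, since the set was proposed with the differences between HepLPC and NPC_LPC in these libraries known. Their levels and fold changes between the origins are therefore a description, with no test, and nothing is supported with them. Total counts ran from 17575998 to 20625957 per library, and 3 counts correspond to 0.149 to 0.169 CPM (counts scaled to a common library total after TMM). Pairs of values below are given for replicate 1 and then replicate 2. Of 10 progenitor and biliary markers 1 had no count in any library, and the rest exceeded 3 counts in at least 1 library. Abundant ones such as Spp1 and Cd24a were at 904 to 8939 CPM and 683 to 1318 CPM over the 4 libraries. Of 11 hepatocyte markers Apob (1470 to 4723 CPM) and Hnf4a (27.4 to 249 CPM) were present, both higher in each HepLPC library than in either of NPC_LPC. The other 9 hepatocyte markers were at 5.28 CPM or less in every library, and 3 of them, Tat, Cyp2e1 and Cyp3a11, had no count. In bulk RNA, fewer expressing cells and less RNA per cell cannot be told apart.

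IFIT proteins and ISG15 are products of the type I interferon response. Interferon binding to the receptor activates JAK1 and TYK2, and a complex that holds STAT2 and IRF9 then binds interferon-stimulated response elements in promoters. IFIT proteins bind RNA whose ends look viral and restrict its translation, and ISG15 is a ubiquitin-like protein that is joined to other proteins by an activating enzyme (Uba7), a conjugating enzyme (Ube2l6) and a ligase (Herc6 in the mouse). Usp18 removes ISG15 again, and its protein also binds the interferon receptor and damps its signalling.

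Promoters are shown for Isg15, Ifit1 and Ifit3, the members whose RefSeq promoter window held the core of the response element, and for the neighbouring family member Ifit2, whose windows held none. Each is the 250 bases before the annotated start (RefSeq, GRCm38.p6, the assembly called mm10), 5′ to 3′ on the strand of the gene, with matches to GAAA-NN-GAAA on either strand in capitals.
Isg15 (chr4:156200819-156201068, minus strand): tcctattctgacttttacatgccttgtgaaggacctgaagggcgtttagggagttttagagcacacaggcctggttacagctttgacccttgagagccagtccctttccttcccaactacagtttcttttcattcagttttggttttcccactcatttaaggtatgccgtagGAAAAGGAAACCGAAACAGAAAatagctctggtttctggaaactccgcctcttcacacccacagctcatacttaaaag
Ifit1 (chr19:34640639-34640888, plus strand): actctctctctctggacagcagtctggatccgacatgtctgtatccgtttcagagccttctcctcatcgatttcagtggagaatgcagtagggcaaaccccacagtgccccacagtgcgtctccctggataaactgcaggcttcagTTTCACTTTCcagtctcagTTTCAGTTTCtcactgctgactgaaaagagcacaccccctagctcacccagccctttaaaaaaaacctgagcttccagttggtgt
Ifit3 (chr19:34583279-34583528, plus strand): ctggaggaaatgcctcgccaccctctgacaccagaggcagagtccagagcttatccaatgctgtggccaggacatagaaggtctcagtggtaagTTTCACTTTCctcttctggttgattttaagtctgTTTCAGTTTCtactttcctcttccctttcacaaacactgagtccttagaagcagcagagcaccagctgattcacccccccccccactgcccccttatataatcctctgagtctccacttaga
Ifit2 (chr19:34550444-34550693, plus strand): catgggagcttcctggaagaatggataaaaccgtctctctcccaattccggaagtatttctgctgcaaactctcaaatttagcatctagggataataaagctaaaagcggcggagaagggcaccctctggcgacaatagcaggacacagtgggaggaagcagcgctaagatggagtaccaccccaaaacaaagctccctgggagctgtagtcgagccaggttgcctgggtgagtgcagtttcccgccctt

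The motif GAAA-NN-GAAA was searched on both strands in windows from 250 bases before to 50 bases after each start. In Isg15 3 overlapping matches ran together from base -78 to base -57 before the start. Ifit1 held 2 matches, the nearer ending 76 bases before the start, and Ifit3 held 2, the nearer ending 113 bases before it. Of the 8 genes 7 had a window, and 3 of these 7 held the motif, against 3.99% of the 27025 genes in the table and 15 of 34 other interferon-induced genes with a window. None of the windows of Ifit2 (2 windows), Uba7, Ube2l6 and Herc6 held these letters. For Ifit2 and Ifit3 the starts used lie inside the gene spans given below, so bases before the outermost position were not all searched. The gamma-activated sequence TTCNNNGAA was found once among the members, in a window of Ifit2 at bases -241 to -233, and in 9.55% of all genes. The matches describe letters in these windows and not sites of binding.

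**Figure D1:**
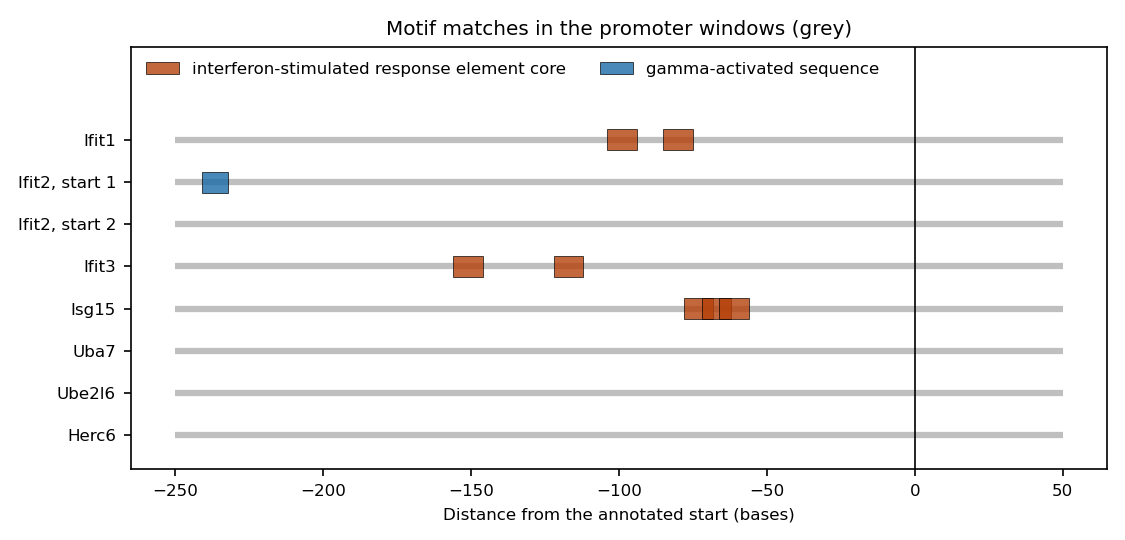
Matches to the 2 motifs (coloured boxes) along each promoter window (grey bar), with distance from the annotated start in bases on the horizontal axis and a row for each window. Isg15, Ifit1 and Ifit3 hold the response element core within 160 bases of the start, and Uba7, Ube2l6 and Herc6 hold neither motif.

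The IFIT genes lie side by side on chromosome 19 and differed from each other in how they were expressed. Ifit1 (34640889 to 34650009), which in mouse and human recognises RNA with an incompletely methylated cap, had no count in either HepLPC library and reached 15.5 and 120.1 CPM in NPC_LPC. Both NPC_LPC libraries thus stood above HepLPC, and unequally so. Set against a floor of 3 counts per library, the HepLPC mean was at least 404-fold lower. Ifit3 (34583119 to 34588982), known in human as a partner that stabilises IFIT1, was at 0.167 and 2.14 CPM in HepLPC, from 3 and 38 counts, against 10.9 and 171 CPM in NPC_LPC. Its mean was 78.9-fold lower in HepLPC, a fitted log2 fold change (HepLPC over NPC_LPC) of -6.30 (SE 1.66), which was -9.04 without HepLPC replicate 2 and -3.24 without NPC_LPC replicate 2. All 4 libraries differed from each other for Ifit3, and the HepLPC libraries stayed below both NPC_LPC libraries.

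Ifit2 (34550550 to 34576534), an RNA-binding family member that in human also takes part in IFIT complexes, did not share that spread. It was at 19.5 and 18.1 CPM in HepLPC, against 46.4 and 46.8 CPM in NPC_LPC. The groups did not overlap and each was narrow, with means of 18.8 ± 0.999 CPM in HepLPC and 46.6 ± 0.30 CPM in NPC_LPC (SD, n = 2 each). The log2 fold change was -1.31 (SE 0.26), or 2.48-fold lower in HepLPC, the smallest difference among the 8 genes with all libraries in. Without NPC_LPC replicate 2 that of Herc6 was smaller, at -1.04 against -1.30 for Ifit2. Ifit2 was the only IFIT gene listed here with more than 100 counts in each HepLPC library, at 351 and 321 counts.

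The mouse locus also holds the paralogs Ifit3b, Ifit1bl1 and Ifit1bl2. Ifit3b had 5 and 6 counts in HepLPC, against 3.84 and 53.9 CPM in NPC_LPC, with the same order of the NPC_LPC libraries as Ifit3. Of the stretches of 100 bases in the Ifit3 transcript, 31.7% occur unchanged in Ifit3b, so how reads were divided between Ifit3 and Ifit3b is uncertain. Ifit1bl1 reached 2.67 CPM and Ifit1bl2 1.58 CPM in NPC_LPC replicate 2, and neither exceeded 2 counts in HepLPC. Ifit1 shares 3.29% of such stretches with Ifit1bl2 and Ifit2 shares none with any annotated gene. The windows of Ifit1 and Ifit1bl2 face away from each other and overlap, and 2 matches of the response element core lie in both at the same bases.

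**Figure D2:**
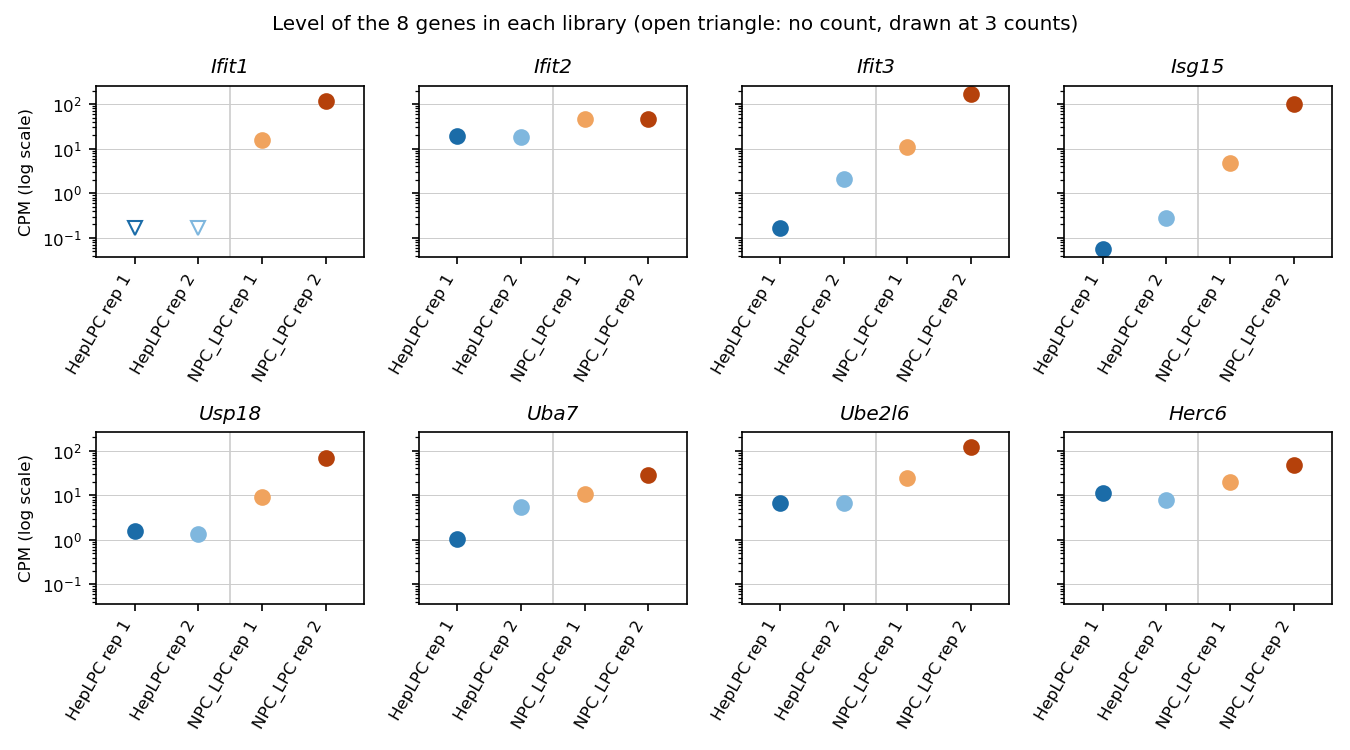
CPM of each of the 8 genes (log scale) in HepLPC replicates 1 and 2 and NPC_LPC replicates 1 and 2, each point a library. Every gene is lower in both HepLPC libraries than in both NPC_LPC libraries, and NPC_LPC replicate 2 stands well above replicate 1 for 7 of them, while for Ifit2 the NPC_LPC replicates nearly coincide at 46.4 and 46.8 CPM.

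Isg15, the modifier itself (chromosome 4, 156199424 to 156200818), was close to absent from HepLPC. It had 1 and 5 counts in HepLPC, or 0.0555 and 0.282 CPM, against 4.83 and 101 CPM in NPC_LPC. The groups did not overlap, and NPC_LPC replicate 2 stood far above replicate 1. The mean was 315-fold lower in HepLPC, and the log2 fold change was -8.25 (SE 1.80). With 6 counts in all on the HepLPC side the size is imprecise: over the summed counts the fold was 331, with an exact 95% binomial interval of 152 to 904 that covers counting error only. The other tested genes of chromosome 4 had a median log2 fold change of -0.61, while the medians of chromosomes 2, 6, 9 and 19, which hold the other members, were 0.03, 0.01, -0.07 and 0.26.

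The enzymes that attach ISG15 were present at low level in HepLPC and higher in NPC_LPC. Uba7, which activates ISG15 (chromosome 9, 107975567 to 107984056), was at 1.06 and 5.41 CPM in HepLPC, against 10.7 and 28.8 CPM in NPC_LPC, 6.11-fold lower in HepLPC by the means (log2 fold change -2.61, SE 0.88, and -4.22 without HepLPC replicate 2). Ube2l6, the conjugating enzyme (chromosome 2, 84798828 to 84810003), was at 6.72 and 6.53 CPM in HepLPC, against 24.5 and 123 CPM in NPC_LPC, 11.2-fold lower in HepLPC (log2 fold change -3.48, SE 0.78). Herc6, the ligase (chromosome 6, 57580992 to 57665136), was at 11.4 and 7.66 CPM in HepLPC, against 19.6 and 47.8 CPM in NPC_LPC, 3.54-fold lower in HepLPC (log2 fold change -1.82, SE 0.52). The HepLPC libraries were nearly equal for Ube2l6, whereas for Uba7 replicate 2 stood 5.12-fold above replicate 1 (exact 95% binomial interval 3.11 to 8.88, counting error only). Of the stretches of 100 bases in the Herc6 transcript 20.9% also occur in the predicted gene Gm45193, and for Uba7 2.81% occur in Gm20661, both annotated over the same positions, so some of these reads could be counted elsewhere.

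Usp18, the protease that takes ISG15 off (chromosome 6, 121245906 to 121270917), was at 1.61 and 1.35 CPM in HepLPC, against 9.11 and 66.9 CPM in NPC_LPC. Its mean was 25.7-fold lower in HepLPC (log2 fold change -4.67, SE 1.01), between the value of Isg15 and those of the attaching enzymes. Gm44148, a predicted gene on the other strand, overlaps it and holds 1.61% of its stretches of 100 bases.

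The NPC_LPC libraries were unequal for every member but Ifit2. Isg15 was 21.01-fold higher in replicate 2 than in replicate 1, Ifit3 15.7-fold, Ifit1 7.77-fold, Usp18 7.34-fold, Ube2l6 5.03-fold, Uba7 2.69-fold and Herc6 2.43-fold. For Ifit2 the ratio was 1.01, with an exact 95% binomial interval of 0.919 to 1.11 (counting error only). In 7 of the 8 genes replicate 2 was at least 2-fold above replicate 1, against 7.3% of the 12332 tested genes (7.61% were at least 2-fold lower). The genes were chosen with the difference between the origins known, which favours genes that are high in either NPC_LPC library. Nothing is read from this count. Between the HepLPC libraries 3 of the 8 (Ifit3, Isg15 and Uba7) were at least 2-fold higher in replicate 2, against 8.27% of tested genes (6.73% were at least 2-fold lower), and the other 5, Ifit1 with no count among them, were within 2-fold. For Isg15 this rests on 5 counts against 1, and the exact 95% binomial interval of the ratio, 0.567 to 240, includes no difference. For Ifit3 it rests on 38 counts against 3, with an interval of 4.08 to 65.1 (counting error only).

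NPC_LPC replicate 1 alone also stood above both HepLPC libraries for all 8 genes. Against it the HepLPC mean was lower by 28.6-fold for Isg15, 9.46-fold for Ifit3, 6.15-fold for Usp18, 3.70-fold for Ube2l6, 3.31-fold for Uba7, 2.47-fold for Ifit2 and 2.06-fold for Herc6, and by at least 92.2-fold for Ifit1. Without NPC_LPC replicate 2 the median log2 fold change of the 8 genes was -2.25, against -4.08 with it and -0.003 over all tested genes with it. Setting Ifit1 to its bound in place of its fitted value could not move the median of the 8 genes from -4.08. Ifit1 had the lowest value of the 8 in both cases.

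**Figure D3:**
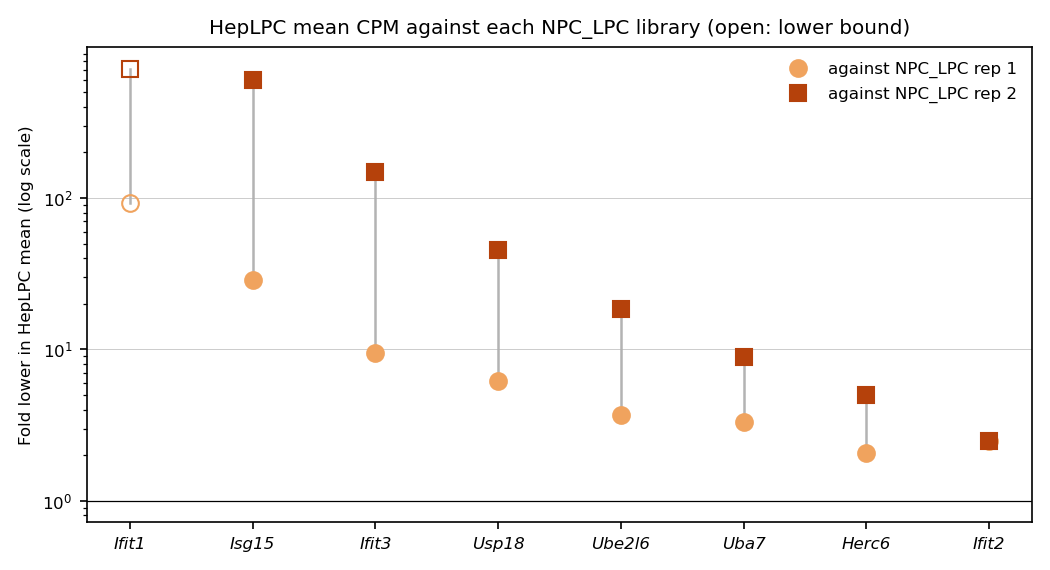
How many times lower the HepLPC mean CPM was than each NPC_LPC library (log scale), with genes ordered by the fold against the NPC_LPC mean. Circles are replicate 1 and squares replicate 2, open symbols are lower bounds, and the line joins the libraries; for Ifit2 the symbols coincide at 2.47-fold and 2.49-fold, while those of Isg15 lie at 28.6-fold and 602-fold.

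All 8 members had no overlap between the groups, with HepLPC lower, as had 28.6% of tested genes, where 27.9% had none with HepLPC higher. The fitted value was below 0 for all 8 and for 50.2% of tested genes. None of the 8 passed edgeR's quasi-likelihood test at an adjusted p of 0.05, which called 0.203% of tested genes lower in HepLPC and 0.227% higher. At an unadjusted p under 0.05 all 8 were lower, as were 11.5% of tested genes, where 10.4% were higher. DESeq2 called all 8 lower in HepLPC, and 6.5% of tested genes lower and 5.81% higher. Nothing is read from these counts, since the contrast was used in choosing the genes.

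Per length, the order of the genes differed between the origins. By the authors' FPKM, Ube2l6 and Ifit2 led in HepLPC, at 4.27 and 3.83 FPKM for Ube2l6 and 3.14 and 2.90 FPKM for Ifit2, and Isg15 stood lower, at 0.087 and 0.470 FPKM. In NPC_LPC replicate 1 Ube2l6 led at 15.01 FPKM and Isg15 followed at 7.72 FPKM, close to Ifit2 at 7.37 FPKM. In NPC_LPC replicate 2 Isg15 led at 157 FPKM, followed by Ube2l6 at 78.2 FPKM, and Ifit1, Ifit3 and Usp18 lay together at 34.01 to 35.5 FPKM. Isg15 was thus below its activating enzyme in HepLPC, at 0.344 and 0.435 times the FPKM of Uba7, and above it in NPC_LPC, at 3.55 and 22.3 times. The FPKM ratio of Ube2l6 to Uba7 was 16.9 and 3.55 in HepLPC and 6.91 and 11.1 in NPC_LPC, so that those groups overlapped. With 1 and 5 counts of Isg15 in HepLPC its ratio there is imprecise.

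**Figure D4:**
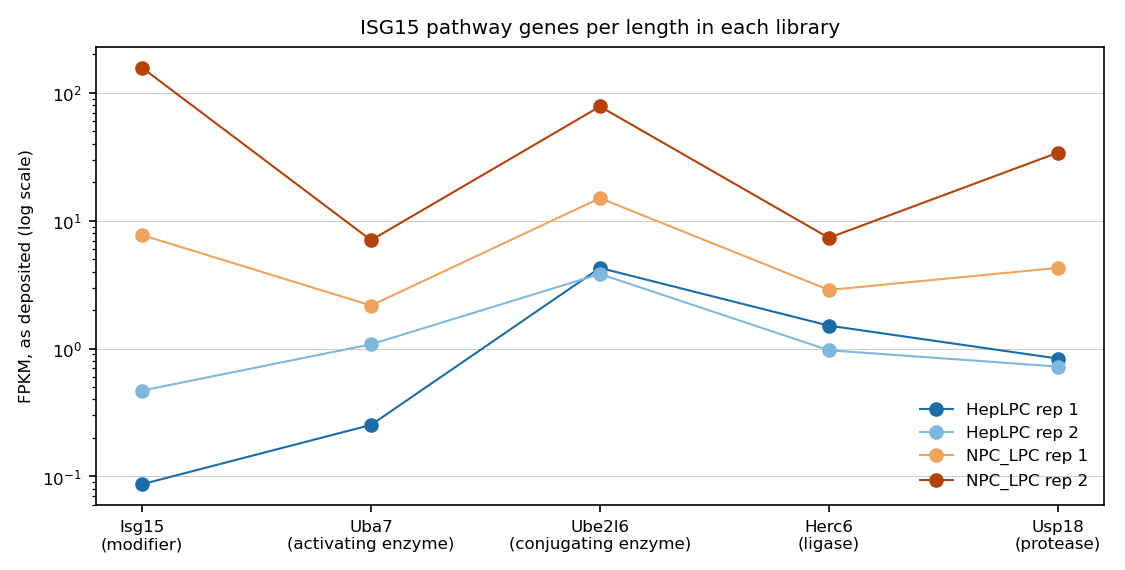
Deposited FPKM (log scale) of Isg15, its activating enzyme Uba7, conjugating enzyme Ube2l6, ligase Herc6 and protease Usp18, with a line for each of the 2 HepLPC and 2 NPC_LPC libraries. Isg15 is the lowest of the 5 genes in both HepLPC libraries and the highest in NPC_LPC replicate 2, at 157 FPKM.

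Among the enzymes of ubiquitin, which are relatives of the ISG15 enzymes, Uba1 and Ube2l3 stood above Uba7 and Ube2l6 in every library by FPKM. Uba1, the ubiquitin-activating enzyme, was at 146 and 141 FPKM in HepLPC, against 131 and 151 FPKM in NPC_LPC, which is 577 and 131 times the FPKM of Uba7 in HepLPC and 60.5 and 21.4 times in NPC_LPC. Ube2l3, the closest relative of Ube2l6, was at 128 and 104 FPKM in HepLPC, against 100.01 and 106 FPKM in NPC_LPC. That is 29.9 and 27.1 times the FPKM of Ube2l6 in HepLPC and 6.66 and 1.35 times in NPC_LPC, so that in NPC_LPC replicate 2 the pair lay close. Not all relatives were abundant: Uba6, a further ubiquitin-activating enzyme, was at 10.96 and 5.34 FPKM in HepLPC, against 12.3 and 12.7 FPKM in NPC_LPC. Herc1 and Herc3 lay below Herc6 in NPC_LPC replicate 2 only, at 5.47 and 4.55 FPKM against 7.34 FPKM. In NPC_LPC replicate 1 they were at 6.29 and 3.28 FPKM, against 2.87 FPKM for Herc6. In HepLPC Herc1 was at 5.67 and 3.55 FPKM and Herc3 at 3.78 and 4.02 FPKM, against 1.51 and 0.971 FPKM for Herc6. Of 26 genes of ubiquitin and ubiquitin-like modifiers and their enzymes edgeR called 0, against 0.203% of tested genes lower and 0.227% higher. DESeq2 also called 0, against 6.5% lower and 5.81% higher. At an unadjusted p under 0.05, 0 were lower in HepLPC (11.5% of tested genes) and 2 higher (10.4%). The median log2 fold change of the 26 genes was 0.18, with 19 fitted values above 0 and 7 below. The groups did not overlap in 12 with HepLPC higher (27.9% of tested genes) and in 2 with HepLPC lower (28.6%).

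Other genes listed as partners of ISG15 did not share the direction of the members as a list, with 4 fitted values below 0 and 5 above. Trim25, a ligase reported for ISG15 in human, was at 163 and 101 CPM in HepLPC, against 122 and 228 CPM in NPC_LPC, with overlapping groups. Arih1, a further ligase, was at 154 and 127 CPM in HepLPC, against 157 and 160 CPM in NPC_LPC, with no overlap. Such an order, with HepLPC lower, was found in 3 of the 9 tested (28.6% of tested genes). The reverse was found in 2 (27.9%). Of 10 such partners 9 were tested, with a median log2 fold change of 0.03. Of these 9 edgeR called 0, against 0.203% of tested genes lower and 0.227% higher. DESeq2 also called 0, against 6.5% lower and 5.81% higher. At an unadjusted p under 0.05 there were 0, against 11.5% lower and 10.4% higher. With 9 genes, counts of 0 lie near these shares, and nothing is read from them.

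In the signalling pathway upstream, Stat2 and Irf9, whose proteins join in the complex that binds response elements, were lower in HepLPC, but not at the threshold of edgeR. Stat2 was at 22.9 and 30.1 CPM in HepLPC, against 119 and 188 CPM in NPC_LPC, with a fitted difference on the log2 scale of -2.53 (SE 0.33, edgeR adjusted p = 0.057). Irf9 was at 7.05 and 9.46 CPM in HepLPC, against 38.9 and 69.2 CPM in NPC_LPC, with a fitted difference on the log2 scale of -2.71 (SE 0.40, edgeR adjusted p = 0.0598). The call depends on the method. The adjusted p by DESeq2 was 1.15e-09 for Stat2 and 9.22e-08 for Irf9. By limma on log2(FPKM + 1) at a mean FPKM of at least 0.5 it was 0.0549 for both. In NPC_LPC the ratio of replicate 2 to replicate 1 was 1.58 for Stat2 and 1.78 for Irf9. Irf7, an interferon-induced amplifier of the response, had the widest ratio of these, 9.01, and was at 2.17 and 1.13 CPM in HepLPC, against 12.7 and 114 CPM in NPC_LPC.

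The receptor and kinase genes differed less. Ifnar1 was at 55.0 and 58.3 CPM in HepLPC, against 83.2 and 99.5 CPM in NPC_LPC, and Ifnar2, the subunit that Usp18 binds, stood at 44.2 and 36.3 CPM in HepLPC, against 71.5 and 63.2 CPM in NPC_LPC. Jak1 was at 96.5 and 137 CPM in HepLPC, against 309 and 288 CPM in NPC_LPC, with a fitted difference on the log2 scale of -1.35 (SE 0.27, edgeR adjusted p = 0.084). Jak1 lies on chromosome 4, where the tested genes other than Isg15 had a median log2 fold change of -0.61. Ptpn6, a phosphatase that restrains JAK signalling, had a value of opposite sign, at 25.5 and 23.4 CPM in HepLPC, against 6.25 and 5.20 CPM in NPC_LPC, with a fitted difference on the log2 scale of 2.09 (SE 0.34, edgeR adjusted p = 0.070). Of 22 signalling genes 21 were tested and edgeR called 0, with 8 lower (11.5% of tested genes) and 1 higher (10.4%) at an unadjusted p under 0.05, where DESeq2 called 5 lower (6.5% of tested genes) and 1 higher (5.81%). Among the DESeq2 calls were Jak1 and Ptpn6, at adjusted p = 4.13e-04 and 1.71e-05. The median log2 fold change of the 21 tested genes was -0.46.

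Transcripts of the interferons themselves were at or near 0. Of 21 interferon genes 20 had no count in any library, which allows at most 3 counts each, and Ifne had 2 and 1 counts in HepLPC and none in NPC_LPC. Interferon protein in the media was not measured.

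The wider set of interferon-induced genes lay in the same direction as the members. Of 45 listed genes 43 were in the tables and 40 were tested, 39 with a fitted value below 0 in HepLPC, and their median log2 fold change was -3.85, against -4.08 for the 8 members. The edgeR test called 3 lower in HepLPC, which were Oas3, Ifi203 and Ifi205 (adjusted p = 0.0466, 0.0413 and 0.0419), against 0.203% of tested genes, and DESeq2 called 37 lower, against 6.5%. For these 3 genes, in that order, limma on unfiltered log2(FPKM + 1) gave adjusted p = 0.170, 0.139 and 0.155. DESeq2 gave adjusted p = 5.54e-18, 1.20e-27 and 1.86e-16, so the calls depend on the method. At an unadjusted p under 0.05 38 were lower, against 11.5%, and 0 higher. In 33 of the 40 NPC_LPC replicate 2 was at least 2-fold above replicate 1, against 7.3% of tested genes. This list, like the others, was chosen with earlier results of these data known, so nothing is read from these counts. The exception in direction was Oasl1, singled out after its values were seen, an inhibitor of Irf7 translation in the mouse, at 23.6 and 46.9 CPM in HepLPC, against 1.70 and 19.8 CPM in NPC_LPC, with a fitted difference on the log2 scale of 1.71 (SE 1.03, edgeR adjusted p = 0.382). The highest of the set by mean CPM over the 4 libraries were Lgals3bp and Lgals9, with Lgals9 the higher in HepLPC and Lgals3bp in NPC_LPC. Lgals3bp, a secreted glycoprotein, was at 135 and 226 CPM in HepLPC, against 854 and 1447 CPM in NPC_LPC, and Lgals9 at 404 and 343 CPM in HepLPC, against 372 and 504 CPM in NPC_LPC. Of 16 nucleic acid sensor genes 14 were tested, edgeR called 0, with 7 lower (11.5% of tested genes) and 0 higher at an unadjusted p under 0.05, where DESeq2 called 7 lower (6.5%). Their median was -1.08, and it was -0.59 without NPC_LPC replicate 2, -1.71 without NPC_LPC replicate 1 and -1.74 without HepLPC replicate 1. Ifih1, Ddx58, Dhx58, Zbp1 and Adar are in both lists, so the lists are not separate. The RNA sensor Ddx58 was at 15.5 and 23.2 CPM in HepLPC, against 96.8 and 242 CPM in NPC_LPC, and the kinase Ikbke at 123 and 164 CPM in HepLPC, against 186 and 113 CPM in NPC_LPC.

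**Figure D5:**
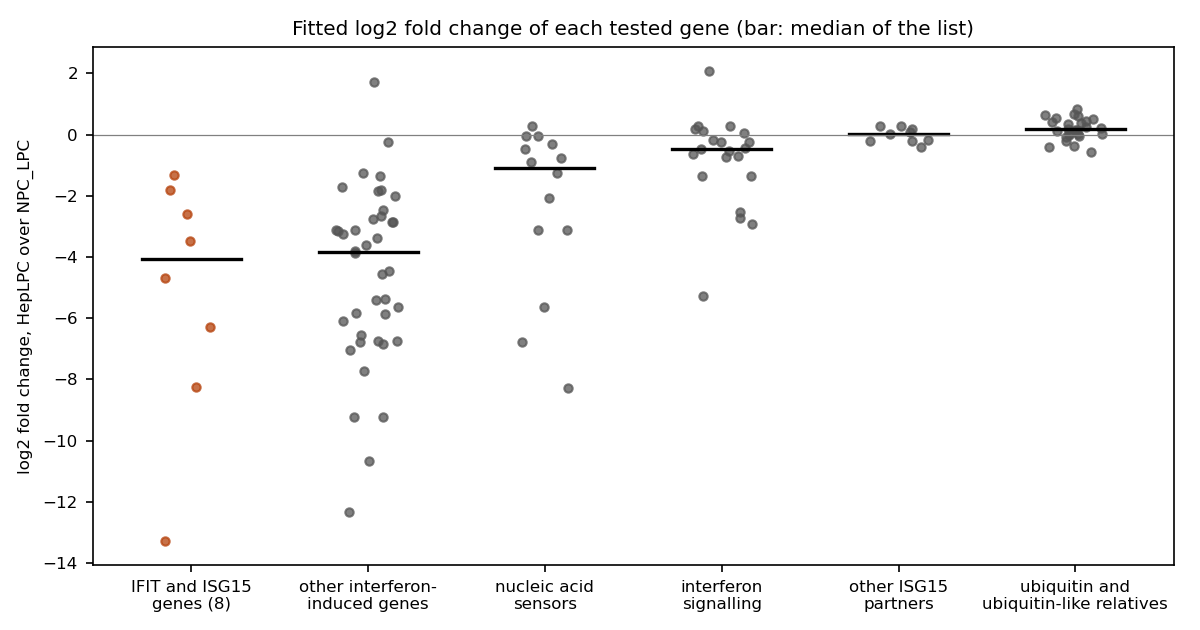
Fitted log2 fold change (HepLPC over NPC_LPC) of every tested gene in 6 lists, each point a gene and each bar the list's median. The 8 IFIT and ISG15 genes and the other interferon-induced genes lie mostly below -1, with medians of -4.08 and -3.85, while the ISG15 partners and ubiquitin relatives lie around 0, with medians of 0.03 and 0.18; fitted values below -10 belong to genes with no count in HepLPC and depend on the prior count.

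Outside all lists, the 5 genes whose log2 CPM profile over the 4 libraries lay nearest to the mean profile of the members were Hspb2, Irgm2, Inhbb, P2rx7 and Gbp7, at root mean square distances of 0.185 to 0.358. Irgm2 and Gbp7 encode interferon-induced GTPases. Irgm2 was at 2.28 and 2.53 CPM in HepLPC, against 25.2 and 124 CPM in NPC_LPC, and Gbp7 at 0.722 and 1.97 CPM in HepLPC, against 13.5 and 89.3 CPM in NPC_LPC. Inhbb, which encodes an activin subunit, was at 0.167 and 0.225 CPM in HepLPC, against 3.29 and 13.4 CPM in NPC_LPC. The distance was taken over 4 libraries and 11739 candidate genes, and it says nothing of a shared control.

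Markers of other cells that a liver preparation could hold were set beside these levels. Of 14 leukocyte and Kupffer cell markers 5 had no count and 8 had at most 3 counts in every library, the defining Ptprc had at most 5, Adgre1 at most 1 and Clec4f none. Together they gave 114 and 52.5 CPM in HepLPC, against 235 and 73.1 CPM in NPC_LPC, mostly Cd14 and Cd68. Endothelial markers summed to 8.73 to 9.11 CPM in HepLPC, against 4.61 to 6.93 CPM in NPC_LPC, 3 of 8 at 3 counts or fewer in every library, and Pecam1 had at most 1 count. Stellate and mesenchymal markers summed to 549 and 689 CPM in HepLPC, against 2583 and 3685 CPM in NPC_LPC, nearly all of it Fbln2. Of these 12 markers 2, Lrat and Thy1, had no count, and 3 had at most 3 counts in every library. The 5 that were tested had 2 fitted values below 0 and 3 above. Hepatocyte markers summed to 3698 and 4975 CPM in HepLPC, against 2681 and 1520 CPM in NPC_LPC, mostly Apob. Biliary and progenitor markers summed to 6573 and 4350.5 CPM in HepLPC, against 10959 and 5572 CPM in NPC_LPC. Mesothelial markers summed to 202 and 822 CPM in HepLPC, against 612 and 232 CPM in NPC_LPC, and the 10 cell cycle genes to 2911 and 1763 CPM in HepLPC, against 1028 and 1865 CPM in NPC_LPC. The part of cells expressing Cd14, Cd68 or Fbln2, hepatocyte genes and proliferation in the differences of the members was not tested.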

How the data were processed

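For each of the 4 libraries a table was deposited that pairs gene symbols with read counts and FPKM. Per the labels' protocols, RNA was extracted with RNeasy columns and sequenced as paired ends after a TruSeq stranded mRNA preparation. The build was mm10 and the programs Trimmomatic, HISAT2, Cufflinks, HTSeq and DESeq were used, per the submitters' processing notes, while the sources used here name no version, annotation or strand setting. The authors deposited the counts as whole numbers, unscaled, with totals that differ between libraries. The authors also deposited FPKM (a read count per length and depth), which served here to set genes side by side and for alternatives. In 27 rows the symbol reads as a date, and these rows were kept in totals and tests.

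Counts went into edgeR 4.0.16 (R 4.3.3; quasi-likelihood F test) with TMM scaling and filterByExpr, which left 12332 genes, among them all 8 members, with group as the only term. Log2 fold changes have HepLPC on top, standard errors were derived from the F statistic, and p-values are two-sided, adjusted by Benjamini-Hochberg over all tested genes with 0.05 as the threshold. Folds given as "fold lower" are ratios of mean CPM. A gene with no count in a group is given against 3 counts per library. Log2 CPM used a prior count of 2. Intervals are exact binomial ones at 95% (SciPy 1.17.1), and they and the floors cover counting error only, since reads without molecular identifiers are not independent molecules. With 2 libraries against 2 an exact permutation test cannot go below p = 0.333, and none was run. The edgeR step was tested on simulated data. Replicate numbers are not said to pair libraries.

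The members and all gene lists were chosen with earlier results of these data known. Named were the members, genes of the lists of IFIT paralogs, ISG15 partners, interferon signalling and interferon ligands, the most abundant genes of each other list and those past the threshold, and the 5 genes nearest in profile. Gene positions and promoters come from RefSeq on GRCm38.p6, and shared stretches were counted between transcripts of GENCODE on GRCm38. A promoter window was at hand for 7 of the 8 members. Alternatives were other scaling, other filters, DESeq2 1.42.0, limma 3.58.1 on log2(FPKM + 1) and log2(FPKM + 0.1), the replicate number as a block, and leaving out each library. A gene of the signalling list enters the counts and medians of that list but is not reported here by itself.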

Additional observations from a re-analysis of the deposited data

How the results depend on the processing

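All 8 members kept a log2 fold change below 0 in each of the 13 alternatives run, 104 values in all, but since the genes were chosen for this direction that is no sign of stability. The median of the 8 ranged from -4.84 without NPC_LPC replicate 1 to -2.25 without NPC_LPC replicate 2. The number of members called lower in HepLPC was 0 with edgeR, 8 with DESeq2, 5 with no filter on low counts and 3 with the replicate block, and 0 to 5 when a library was left out (1 without NPC_LPC replicate 2, 5 without NPC_LPC replicate 1). The genes called lower and higher in HepLPC numbered 25 and 28 with edgeR, 801 and 716 with DESeq2, 334 and 259 with no filter on low counts, 52 and 59 with limma on log2(FPKM + 1) at a mean FPKM of at least 0.5, 0 and 0 with the same and no filter, and 87 and 49 with the replicate block. Leaving out a library gave 0 to 221 lower and 0 to 156 higher, with 0 of each without HepLPC replicate 1 or without HepLPC replicate 2. Same-numbered libraries did not deviate together (r = -0.02 across 12332 genes), so the block uses a number only. The median of the ISG15 partners, 0.03, changed sign to -0.0734 with no filter on low counts, -0.00959 with limma on unfiltered log2(FPKM + 1), -0.17 without HepLPC replicate 1 and -0.10 without NPC_LPC replicate 1, and was 0.0384 without NPC_LPC replicate 2. The cause of these changes was not tested. Log2 FPKM with a pseudocount understates the low members, Ifit1 most, at -3.79 with a pseudocount of 1. Counts of 0 to 5 for Ifit1 and Isg15 in HepLPC limit the size of their folds.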
